A study of Mus musculus with 6 samples.

Results

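The genes described here encode the NF-κB transcription factor family and the proteins that hold it in check: the 5 subunits *Nfkb1*, *Nfkb2*, *Rela*, *Relb* and *Rel*, the 3 IκB inhibitors *Nfkbia*, *Nfkbib* and *Nfkbie*, and the feedback genes *Tnfaip3* and *Birc3*. They were chosen by name and not by their values, although earlier results of these data were known. The reason was that TBL1XR1, a subunit of nuclear corepressor complexes, is also known as a coregulator of NF-κB. All 10 were among the 53378 genes with a value in every library. Neural stem cells (NSCs) were grown as neurospheres from the cortex of *Tbl1xr1* flox/flox mouse embryos at E14.5, in medium with EGF and basic FGF. Both groups carried the floxed alleles and both received a lentivirus, which delivered either Cre-GFP to delete the floxed part of *Tbl1xr1* or GFP alone as control. GFP+ cells were then sorted. Control replicates 1, 1_1 and 2 and Cre replicates 2, 2_2 and 3 gave 3 libraries per group, all of RNA from whole sorted cultures. The sources used here do not give the embryo behind each culture, whether like-numbered libraries share a culture, or the promoter that drove Cre. The p-values therefore measure only the spread between these libraries, which may be partly technical, and culture origin and deletion cannot be told apart.

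NF-κB proteins work as pairs. In resting cells, IκB proteins keep RELA- and REL-containing pairs in the cytoplasm. Receptors of the TNF, interleukin-1 and Toll-like families activate the IKK kinases, which mark IκB for destruction and let the pairs enter the nucleus. The precursors made from *Nfkb1* and *Nfkb2* also act as inhibitors until they are processed, and RELB works mainly with the *Nfkb2* product in the slower, non-canonical branch. Several of the genes that NF-κB switches on encode its own inhibitors, so the system limits itself. In the nervous system the pathway is best known in glial inflammation, and it has also been linked to the growth of neural progenitors. Because this feedback runs through transcription, mRNA levels of *Nfkbia*, *Tnfaip3*, *Birc3*, *Nfkb2* and *Relb* are commonly read as a sign of pathway activity, although RNA shows neither the location nor the phosphorylation of the proteins.

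The feedback runs through κB sites, and those near the start sites of the members are shown because they are the sequence link between the subunits and the inhibitors. The κB motif, 10 bases long, was searched on both strands as GGG, then A or G, any 2 bases, C or T at each of the next 2 positions, then CC. The windows were the RefSeq promoters of GRCm38.p6, from 250 bases before to 50 after a start site. Of the 10 members, 8 had a promoter in the table, and 5 of these held at least 1 match. Among all 32851 promoters 8.46% held a match, and among all genes with a promoter 9.55% did. The stretches below are written 5′ to 3′ on the gene's own strand, with the match or run of overlapping matches, on either strand, in capitals. The match begins 39 and 11 bases before a start site of *Nfkb2*, 92 before one of *Rel*, 29 before one of *Nfkbia*, 106 before one of *Nfkbie*, and 125 and 12 before one of *Tnfaip3*. *Tnip1* and *Tlr3* are genes of the wider pathway that return below, with matches 58 and 211 bases before a start site. *Irak4* and *Vcam1* also return below, but *Irak4* had no match in its window and *Vcam1* was not in the promoter table.
Nfkb2 (chr19:46304683-46304723, + strand): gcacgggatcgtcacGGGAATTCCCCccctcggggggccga
Nfkb2 (chr19:46304711-46304736, + strand): ctcggggggccgaaaGGGGCTTTCCc
Rel (chr11:23771036-23771076, - strand): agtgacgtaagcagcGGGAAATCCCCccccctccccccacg
Nfkbia (chr12:55492652-55492691, - strand): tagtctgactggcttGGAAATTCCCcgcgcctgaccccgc
Nfkbie (chr17:45555579-45555618, + strand): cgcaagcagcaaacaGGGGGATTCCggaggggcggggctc
Tnfaip3 (chr10:19015511-19015550, - strand): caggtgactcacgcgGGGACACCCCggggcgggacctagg
Tnfaip3 (chr10:19015411-19015437, - strand): actggaatttccatcGGAAATCCCCct
Tnip1 (chr11:54962972-54963013, - strand): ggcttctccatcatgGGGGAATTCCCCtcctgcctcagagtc
Tlr3 (chr8:45410567-45410606, - strand): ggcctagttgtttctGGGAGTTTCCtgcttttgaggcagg
*Nfkb2* had matches at 4 positions over its 3 start sites, of which the pair upstream of 1 start site is shown. *Rela*, *Nfkbib* and *Birc3* had no match in these windows, which says only that these letters do not occur there. *Nfkb1* and *Relb* were not in the promoter table. A match is a description of the sequence and not evidence of binding in these cells.

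Values are normalized counts, the reads of a gene divided by 1 size factor per library. The libraries held from 7510615 to 11161497 reads on genes in the control group and from 11893230 to 14828100 in the group labelled Cre, so the shallowest libraries were all controls. The targeted gene *Tbl1xr1* had 2522, 2190 and 2721 normalized counts in control replicates 1, 1_1 and 2, against 3774, 3463 and 2905 in Cre replicates 2, 2_2 and 3. Its log2 difference was 0.45 (SE 0.14, limma adjusted p = 0.06). The Cre-labelled libraries thus had no lower whole-gene count than control, although such counts do not measure the floxed part on its own. The paper checked its sorted Cre cells by PCR genotyping, RT-qPCR and Western blot, and reports that *Tbl1xr1* mRNA and protein were absent. Whether these libraries came from the cells checked there is not given in the sources used here. The libraries are called by their label throughout. All 12 listed NSC markers had a mean of at least 10 normalized counts, with *Sox1* and *Nes* lower and *Sox9* higher in the Cre-labelled libraries (log2 differences of -2.27, -0.85 and 1.01, limma adjusted p = 3.66e-05, 0.00384 and 0.00175). Of the 12 microglia and macrophage markers, 4 (*Tyrobp*, *C1qa*, *C1qb* and *Trem2*) had no read in any library. The summed level of that list was 180 to 218 normalized counts in control and 181 to 289 in the Cre-labelled libraries, most of it from *Csf1r*.

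No member of the NF-κB set passed an adjusted p of 0.05 between the groups (limma, adjusted by Benjamini-Hochberg across the 14840 genes tested). Of the 10 members, 8 had a mean of at least 10 normalized counts and were tested. None of the 8 was called higher and none lower, where 9.96% of all tested genes were called, 4.74% higher and 5.22% lower. Before adjustment, 1 of the 8 had p under 0.05, *Nfkbib*, where 25.5% of all tested genes did. The counts were the same with edgeR (0 adjusted, 1 unadjusted) and with DESeq2 (0 and 1) on the recovered reads. Among the 8 tested members 3 had a positive and 5 a negative log2 difference, with a median of -0.11, beside a median of -0.001 over all tested genes. The median size of the difference, regardless of sign, was 0.19 for the members and 0.26 for all tested genes. The groups did not overlap for 1 of the 8, *Nfkbie*, which was lower, where 15.5% of all tested genes were lower without overlap and 30.3% did not overlap in either direction. In RNA from whole cultures, fewer cells of a type and less RNA per cell cannot be told apart.

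**Figure D1:**
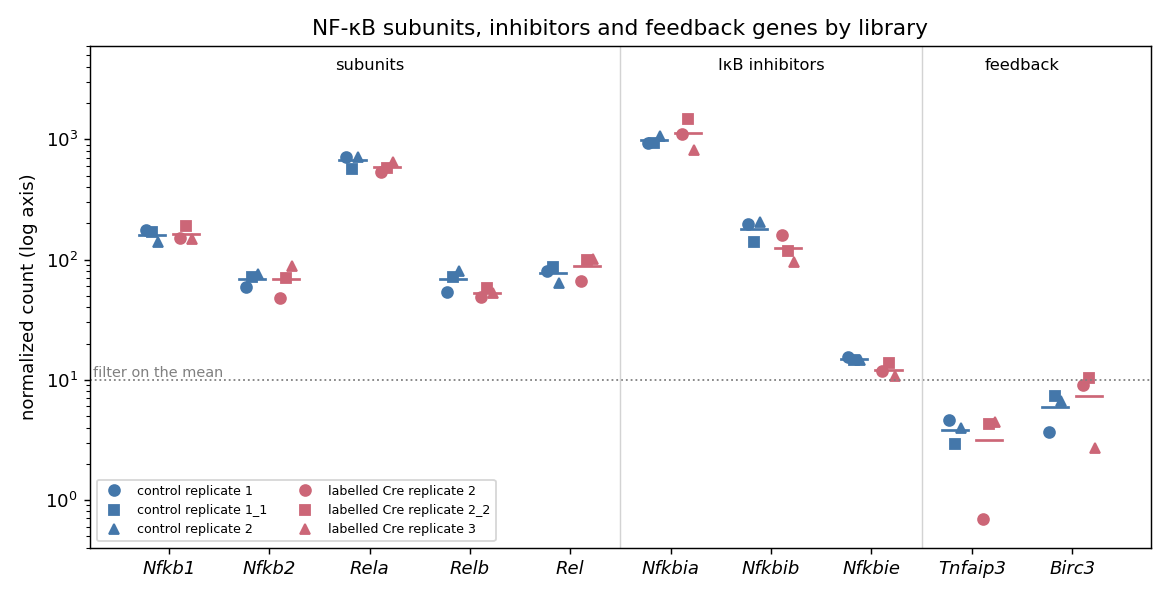
Normalized counts (log axis) of the 10 members in each library, with control libraries in blue, Cre-labelled libraries in red, and a bar at each group mean (n = 3). Apart from *Nfkbie*, whose 3 Cre values (10.7 to 13.8) lie under its 3 control values (14.6 to 15.6), the groups overlap for every gene, and *Tnfaip3* and *Birc3* lie under the filter, a mean over all libraries of 10.

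*Rela* (ENSMUSG00000024927, chromosome 19 of GRCm38.p6, from 5637442 to 5648134), which encodes p65, the main activating subunit, was the most abundant subunit. It had 716, 570 and 718 normalized counts in control replicates 1, 1_1 and 2, against 539, 575 and 643 in Cre replicates 2, 2_2 and 3. Group means were 668 ± 84.4 (SD, n = 3) in control and 586 ± 52.8 (SD, n = 3) in the Cre-labelled libraries, and control replicate 1_1 lay among the Cre values. The log2 difference was -0.19 (SE 0.14, limma adjusted p = 0.446). Its 95% interval, from -0.49 to 0.12, allows a ratio of Cre to control between 0.712 and 1.09, the narrowest range of the 8 tested members.

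*Nfkb1* (ENSMUSG00000028163, chromosome 3, from 135584655 to 135691969), which encodes the p105 precursor of p50, had 176, 170 and 139 normalized counts in the control replicates and 151, 191 and 148 in the Cre replicates. The means of 162 ± 20.04 and 163 ± 24.2 (SD, n = 3 each) were nearly the same, with the lowest value in a control library and the highest in a Cre library. On the log2 scale the difference was 0.01 (SE 0.18, limma adjusted p = 0.975), with a 95% interval from -0.38 to 0.41.

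*Rel* (ENSMUSG00000020275, chromosome 11, from 23736847 to 23770969), which encodes c-REL, a subunit best known in lymphocytes, had 79.8, 86.3 and 64.0 normalized counts in the control replicates and 65.8, 99 and 101 in the Cre replicates. Cre replicates 2_2 and 3 lay above the control libraries, and Cre replicate 2 lay near the lowest of them. It differed by 0.19 on the log2 scale (SE 0.24, limma adjusted p = 0.672), with a 95% interval from -0.33 to 0.71.

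Neither gene of the non-canonical branch passed the test. *Nfkb2* (ENSMUSG00000025225, chromosome 19, from 46300994 to 46312400), which encodes the p100 precursor of p52, had 58.7, 71.7 and 76.0 normalized counts in control and 47.8, 69.7 and 87.7 in the Cre replicates. The Cre libraries held both the lowest and the highest value, and the log2 difference was -0.04 (SE 0.26, limma adjusted p = 0.943). *Relb* (ENSMUSG00000002983, chromosome 7, from 19606217 to 19629438), which encodes its partner, had 54.1, 71.7 and 80.0 normalized counts in control and 48.5, 57.7 and 52.8 in the Cre replicates. The means were 68.6 ± 13.2 and 53.0 ± 4.603 (SD, n = 3 each), and only control replicate 1 lay within the Cre range. Cre minus control was -0.35 on the log2 scale (SE 0.24, limma adjusted p = 0.395), with a 95% interval from -0.88 to 0.17, which allows a ratio between 0.545 and 1.13.

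*Nfkbia* (ENSMUSG00000021025, chromosome 12, from 55489409 to 55492647) encodes IκBα, the inhibitor that NF-κB itself induces fastest, and its mRNA is the usual marker of the feedback loop. It had 936, 926 and 1078 normalized counts in control replicates 1, 1_1 and 2, against 1113, 1487 and 815 in Cre replicates 2, 2_2 and 3. The Cre libraries held both the lowest and the highest value of all 6, and their SD of 337 around a mean of 1138 was larger than the control SD of 84.8 around a mean of 980. The log2 difference was 0.18 (SE 0.19, limma adjusted p = 0.611), with a 95% interval from -0.24 to 0.59, or a ratio between 0.848 and 1.51. Without Cre replicate 2_2 the log2 difference was -0.04 (limma adjusted p = 0.927), and without Cre replicate 3 it was 0.40 (limma adjusted p = 0.121), so its sign depended on a single library.

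*Nfkbib* (ENSMUSG00000030595, chromosome 7, from 28758251 to 28766644), which encodes IκBβ, a slower inhibitor, had the largest difference of the tested members in size. It had 198, 139 and 207 normalized counts in the control replicates and 161, 119 and 94.9 in the Cre replicates. The means were 181 ± 36.9 and 125 ± 33.3 (SD, n = 3 each), with control replicate 1_1 under the highest Cre value. It differed by -0.55 on the log2 scale (SE 0.23), with an unadjusted p of 0.0371 and an adjusted p of 0.164 (limma), which missed the threshold. Without Cre replicate 2 the difference was -0.74 and passed (limma adjusted p = 0.036). In the other fits with 1 library left out the log2 difference stayed negative, and the adjusted p-values did not pass.

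*Nfkbie* (ENSMUSG00000023947, chromosome 17, from 45555700 to 45563169), which encodes IκBε, was the scarcest of the tested members. It had 17, 10 and 11 reads in the control replicates, or 15.6, 14.6 and 14.7 normalized counts, and 17, 16 and 12 reads in the Cre replicates, or 11.8, 13.8 and 10.7 normalized counts. Every Cre value was under every control value (two-sided exact permutation p = 0.1, the lowest possible with 3 libraries against 3). Cre minus control was -0.29 on the log2 scale (SE 0.38, limma adjusted p = 0.69), and with so few reads its 95% interval, from -1.14 to 0.55, allows a ratio between 0.455 and 1.47. The exact permutation p-values of the other members ran from 0.2 for *Relb* and *Nfkbib* to 1 for *Nfkb1* and *Nfkb2*.

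**Figure D2:**
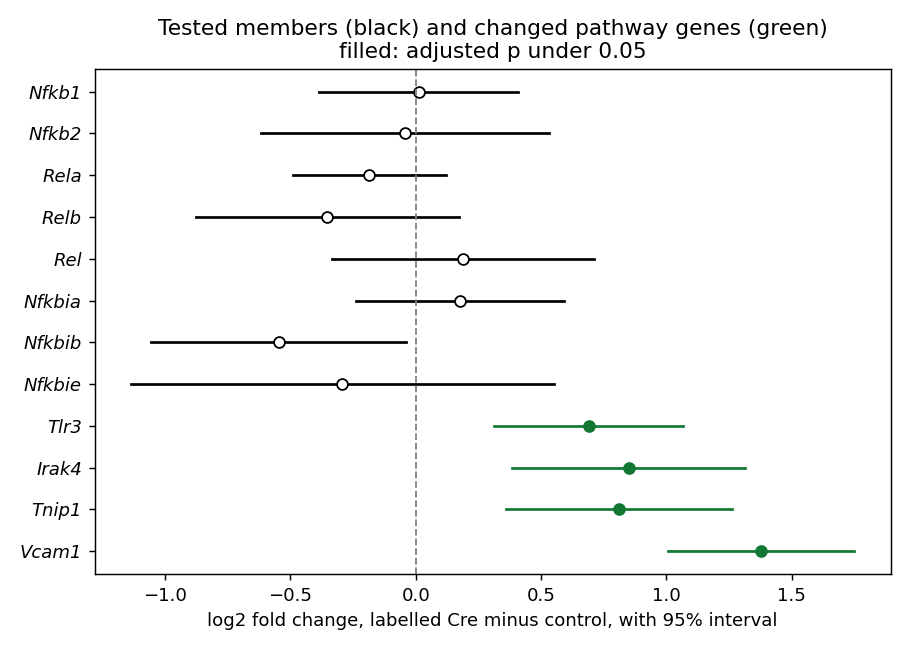
Log2 fold change (Cre-labelled libraries minus control, x axis) with its limma 95% interval for the 8 tested members (black) and for the pathway genes past an adjusted p of 0.05 (green). Filled circles mark an adjusted p under 0.05. The intervals of the members include 0 except that of *Nfkbib*, from -1.05 to -0.04, while *Vcam1*, at 1.38, lies furthest to the right.

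The remaining feedback genes were barely detected. *Tnfaip3* (ENSMUSG00000019850, chromosome 10, from 19000910 to 19015410) encodes A20, a ubiquitin-editing enzyme that shuts off signaling below the TNF receptor. It had 5, 2 and 3 reads in the control libraries and 1, 5 and 5 reads in the Cre-labelled libraries. Summed over the group this was 0.378 reads per 1000000 reads on genes in control (exact Poisson 95% interval 0.181 to 0.696) and 0.283 in the Cre-labelled libraries (0.141 to 0.506), intervals that cover counting error only.

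*Birc3* (ENSMUSG00000032000, chromosome 9, from 7847468 to 7873205) encodes cIAP2, a ubiquitin ligase of the TNF receptor complex. It had 4, 5 and 5 reads in the control libraries and 13, 12 and 3 in the Cre-labelled libraries, with Cre replicate 3 the lowest of all. The sums were 0.53 reads per 1000000 (0.29 to 0.889) and 0.719 (0.478 to 1.04). Both genes were under the filter, and with no filter their log2 differences were -0.39 for *Tnfaip3* (limma adjusted p = 0.775) and 0.16 for *Birc3* (limma adjusted p = 0.911). A difference in either was not detectable at this depth. *Birc2*, the close relative of *Birc3*, was well expressed, with 200 ± 31.6 normalized counts in control and 226 ± 5.40 in the Cre-labelled libraries (SD, n = 3 each, log2 difference 0.19, limma adjusted p = 0.517).

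Levels of different genes were compared per kb of exon. On this scale *Nfkbia* was highest, with a mean of 672 normalized counts per kb over the 6 libraries, a level above that of 93.0% of the 12913 tested genes with a length. *Rela* followed at 231, *Nfkbib* at 70.6, *Nfkb1* at 33.9, *Rel* at 29.5, *Nfkb2* at 20.9, *Relb* at 15.6, *Nfkbie* at 5.59, *Birc3* at 1.32 and *Tnfaip3* at 0.484. The ranges over the 6 libraries did not overlap between *Nfkbia* and *Rela*, between *Rela* and *Nfkbib*, between *Nfkbib* and *Nfkb1*, between *Relb* and *Nfkbie*, or between *Nfkbie* and *Birc3*. The ranges of *Nfkb1*, *Rel*, *Nfkb2* and *Relb* ran into each other from neighbor to neighbor, as did those of *Birc3* and *Tnfaip3*. Within libraries, *Nfkb2* was above *Relb* in 6 of 6, and *Nfkb1* above *Rel* in 5 of 6.

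*Rela* made up 66.4% to 73.5% of the summed subunit level per kb in the control libraries and 65.6% to 70.8% in the Cre-labelled libraries. *Nfkb1* made up 8.04% to 11.2% and 8.96% to 12.3%, *Rel* 6.36% to 9.74% and 8.38% to 10.95%, *Nfkb2* 4.95% to 6.89% and 5.18% to 7.76%, and *Relb* 3.86% to 5.82% and 3.95% to 4.59%. The ranges of the 2 groups overlapped for all 5 subunits.

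Among the inhibitors, *Nfkbia* made up 85.9%, 89.3% and 87.1% of the summed level per kb in control replicates 1, 1_1 and 2, against 89.9%, 94.0% and 91.5% in Cre replicates 2, 2_2 and 3. *Nfkbib* made up 13.2%, 9.75% and 12.1% in control and 9.44%, 5.46% and 7.75% in the Cre replicates. The groups thus did not overlap in these shares, although the gap between the nearest libraries was smaller than the SD within either group (1.77 and 2.04 percentage points for *Nfkbia*). *Nfkbie* made up at most 0.93% in any library, so the shares of *Nfkbia* and *Nfkbib* mirror each other and are not separate observations. The ratio of summed inhibitor to summed subunit level per kb was 1.92, 2.08 and 2.18 in control and 2.80, 3.11 and 1.64 in the Cre replicates. Cre replicates 2 and 2_2 were above the control libraries in this ratio and Cre replicate 3 was below them, the same order that *Nfkbia* shows. These shares and ratios are descriptions, for which no test was run.

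**Figure D3:**
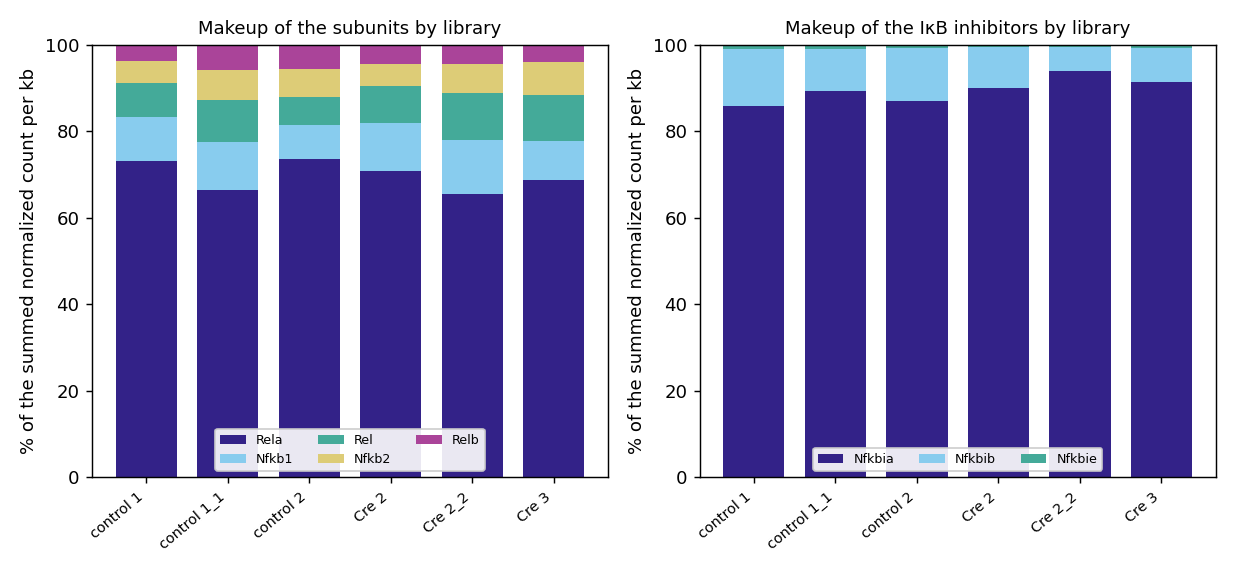
Share (%) of each gene in the summed normalized count per kb of exon, for the 5 subunits (left) and the 3 IκB inhibitors (right), 1 bar per library. *Rela* fills 65.6% to 73.5% of every subunit bar, and *Nfkbia* fills 85.9% to 89.3% of the inhibitor bars in control and 89.9% to 94.0% in the Cre-labelled libraries.

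The highest and lowest values of the members fell in different libraries. Among the 8 tested members, Cre replicate 2 was the lowest library for 3, Cre replicate 3 for 3 and control replicate 2 for 2. Control replicate 2 was also the highest library for 3, Cre replicates 2_2 and 3 for 2 each and control replicate 1 for 1. The spread within groups, as an SD of log2 values, ran from 0.12 for *Nfkbie*, more than that of 14.4% of all tested genes, to 0.35 for *Nfkbib*, more than that of 70.0% of them. With 10 to 17 reads per library, the low SD of *Nfkbie* says little about how steady its level was.

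Lists of 95 further symbols of the pathway, chosen by role but with earlier results of these data known, held 94 genes in the table. Of these, 52 passed the filter. Of these 52, 4 were higher and none was lower at an adjusted p-value under 0.05 (limma), beside 4.74% higher and 5.22% lower among all tested genes. Without adjustment, 12 had p under 0.05 with a positive difference and 5 with a negative one, beside 12.2% and 13.2% of all tested genes. The groups did not overlap for 15 that were higher and 6 that were lower, beside 14.7% and 15.5% of all tested genes. The median log2 difference of the 52 was 0.14. With control replicates 1 and 1_1 averaged, or without any 1 of control replicates 1, 1_1 and 2 or Cre replicate 2_2, only *Vcam1* passed. Without Cre replicate 3, 4 genes passed, 3 higher and 1 lower, but *Tlr3*, *Irak4* and *Tnip1* were not among them (limma adjusted p = 0.0562, 0.0614 and 0.0683). Without Cre replicate 2, 7 genes passed, 6 higher and 1 lower, and with DESeq2 on the recovered reads 8 did, 6 higher and 2 lower.

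Of the 14 receptors, 8 were tested and 1 rose. *Tlr3*, which senses double-stranded RNA, had 95.4, 101 and 105 normalized counts in the control replicates and 170, 148 and 172 in the Cre replicates, so that every Cre library was above every control library. On the log2 scale the difference was 0.69 (SE 0.17, limma adjusted p = 0.0286), and the adjusted p ran from 0.0204 to 0.125 over the alternatives. *Tnfrsf1a*, the main TNF receptor, named after its value was seen, had means of 417 ± 87.3 in control and 272 ± 51.3 in the Cre-labelled libraries (SD, n = 3 each), a log2 difference of -0.61 that did not pass (limma adjusted p = 0.0649) but did with DESeq2. *Tnfrsf1b*, the other TNF receptor, had no read in any library.

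Of the 16 adaptors and ubiquitin ligases, 14 were tested and 1 rose. *Irak4*, the kinase that starts signaling below interleukin-1 and most Toll-like receptors, had 90.9, 92.2 and 62.7 normalized counts in control and 130, 150 and 161 in the Cre replicates, with no overlap. The log2 difference was 0.85 (SE 0.21, limma adjusted p = 0.0287), and the adjusted p ran from 0.0113 to 0.115 over the alternatives. *Traf2* and *Traf6*, which carry TNF and Toll-like signals, had log2 differences of 0.16 and 0.24 (limma adjusted p = 0.76 and 0.344). Among the 14 there were 9 positive and 5 negative log2 differences. The lowest, named after its value was seen, was that of *Rnf31*, at -0.58 (limma adjusted p = 0.125).

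A list of the IKK complex, its activators and other kinases such as *Nlk* held 11 genes, of which 10 were tested and none passed with limma. Among the 10 there were 8 positive log2 differences, *Nlk* with 0.20 among them, and 2 negative ones. At an unadjusted p under 0.05 (limma) there were 3, all 3 positive, beside 12.2% of all tested genes in that direction. The catalytic kinase gene *Ikbkb* had 537 ± 32.5 normalized counts in control and 536 ± 45.2 in the Cre-labelled libraries (SD, n = 3 each, log2 difference -0.004, limma adjusted p = 0.99). *Chuk*, which encodes IKKα, had a log2 difference of 0.11 (limma adjusted p = 0.785), and *Ikbkg*, which encodes the NEMO scaffold, had 0.50 (limma adjusted p = 0.149). *Tab2*, an adaptor of the kinase TAK1 and named after its value was seen, was nearest to the threshold, with 0.48 (limma adjusted p = 0.0505), and it passed with edgeR and with DESeq2.

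Of the 14 genes listed as other inhibitors that were in the table, 10 were tested and 1 rose. The list name is a label and does not state how each gene acts in these cells. *Tnip1*, which encodes the A20-binding protein ABIN1, had 155, 171 and 133 normalized counts in control and 206, 265 and 352 in the Cre replicates, with no overlap. Cre minus control was 0.81 on the log2 scale (SE 0.21, limma adjusted p = 0.0307), and the adjusted p ran from 0.00366 to 0.13 over the alternatives. *Otulin*, a deubiquitinase named after its value was seen, had a log2 difference of -0.56 that did not pass (limma adjusted p = 0.0553) but did with DESeq2. *Bcl3*, also named after its values were seen, had 4, 7 and 6 reads in control and 3, 0 and 4 in the Cre replicates, and was under the filter.

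Cytokine ligands and most inflammatory target genes were at or near 0 in both groups. Of the 9 ligands, 1 (*Tnfsf12*) was tested and did not differ detectably (log2 difference 0.12, limma adjusted p = 0.828), and the other 8 had at most 3 reads in every library. *Tnf* and *Il1b* had no read in any library, which allows up to 0.399 reads per 1000000 in the shallowest one. Of the 30 target genes, 9 were tested, 15 had at most 3 reads in every library, and 9 of those 15, among them *Il6*, *Nos2* and *Cxcl2*, had no read at all. *Cxcl10*, a chemokine named after its values were seen, had 7, 5 and 4 reads in control and 3, 0 and 0 in the Cre replicates, and was under the filter. So were *Icam1* (5, 2 and 3 reads against 1, 1 and 3) and *Lif* (2, 4 and 4 against 0, 2 and 0). These genes were lower without overlap in normalized counts, while *Ccl2*, *Mmp9* and *Cd83*, also under the filter, overlapped. Among all tested genes 15.5% were lower without overlap, and no such share was computed for genes under the filter. With so few reads none of them was tested.

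Among the 9 tested target genes 1 rose, and it had the largest log2 difference in size among the 52 tested genes of the pathway lists. *Vcam1*, an adhesion molecule that cytokines induce in endothelium and that astrocytes and neural stem cells also carry, had 139, 138 and 156 normalized counts in control replicates 1, 1_1 and 2, against 327, 461 and 354 in Cre replicates 2, 2_2 and 3. Group means were 144 ± 10.2 and 381 ± 71.2 (SD, n = 3 each), and the lowest Cre library was above the highest control library. On the log2 scale the difference was 1.38 (SE 0.17, limma adjusted p = 0.00073), and it passed in all of its alternatives, with adjusted p-values up to 0.00716. The summed level of 8 astrocyte markers was also higher in the Cre-labelled libraries, at 5835 to 6729 normalized counts against 3317 to 3664 in control, and 3 of the 7 tested ones (*S100b*, *Slc1a2* and *Aqp4*) rose. Of the other listed markers, *Gfap* was under the filter, and *Aldh1l1* had a log2 difference of -1.65 with no overlap between the groups, which did not pass (limma adjusted p = 0.065). The summed level of 8 oligodendrocyte-lineage markers was 17236 to 19639 normalized counts in the Cre-labelled libraries against 12488 to 14404 in control. All 6 tested ones had a positive log2 difference, and 3 of the 6 were called higher (limma). For 8 neuron markers the sum was 14756 to 16743 in the Cre-labelled libraries against 17539 to 18567 in control, and 1 of the 6 tested ones was called lower (limma). Sums of the 12 NSC markers overlapped, at 46968 to 51759 in the Cre-labelled libraries against 44256 to 48123 in control. The summed level of 7 endothelial markers was 14.3 to 22.9 normalized counts in the Cre-labelled libraries and 32.0 to 43.9 in control, with *Cdh5* and *Cldn5* at 0 reads. The part of these cell types in the *Vcam1* result was not tested. Of the other 8 tested targets 2 had positive and 6 negative log2 differences, among them *Ier3* with -0.35 and *Gadd45b* with -0.66 (limma adjusted p = 0.146 and 0.183). *Cflar*, an inhibitor of caspase-8 that was named after its value was seen, had 0.54 (limma adjusted p = 0.0596) and passed with DESeq2.

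**Figure D4:**
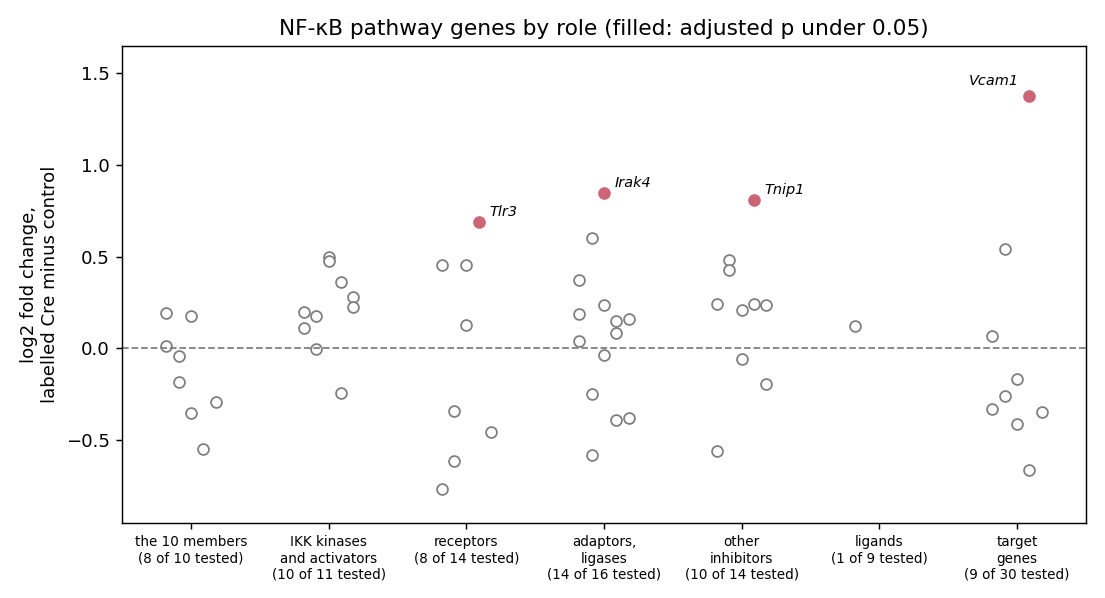
Log2 fold change (Cre-labelled libraries minus control) of each tested gene, 1 circle per gene, for the 10 members and the 6 lists of other pathway genes. Filled circles mark an adjusted p under 0.05. The 4 filled circles, *Tlr3*, *Irak4*, *Tnip1* and *Vcam1*, are all above 0, and none of the 8 tested members is filled.

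The pathway genes whose values followed a member most closely over the 6 libraries were found by Pearson's r of the log2 values, among the 52 tested genes of the lists. The closest were *Irf1* to *Nfkbib* (r = 0.925), *Tradd* to *Relb* (r = 0.953) and *Il1r1* to *Rela* (r = 0.813). Each r rests on 6 libraries in 2 groups, was the highest of 52, and is given as a description.

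**Figure D5:**
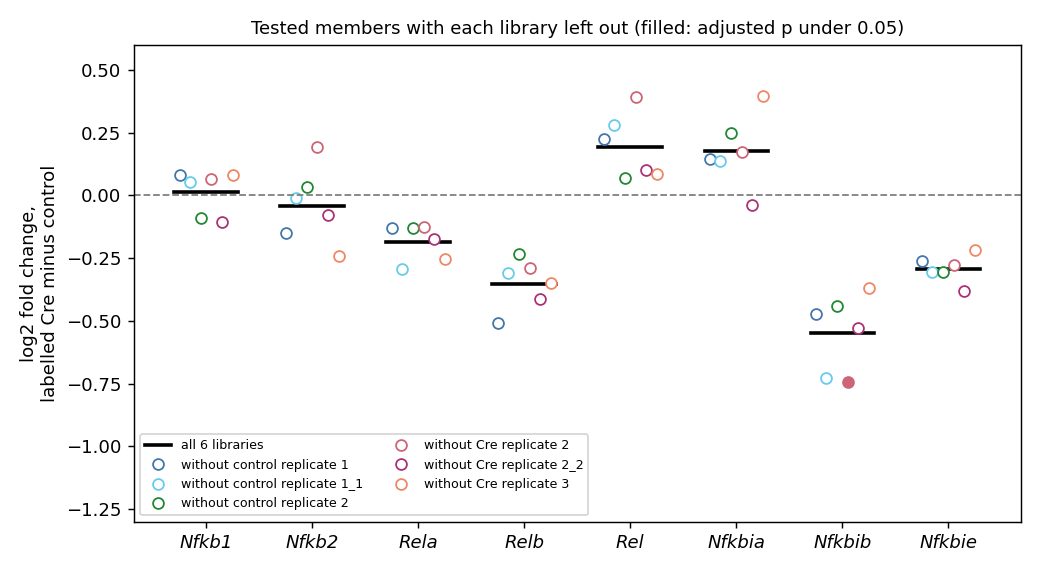
Log2 fold change (Cre-labelled libraries minus control) of the 8 tested members with all 6 libraries (black bars) and with each library left out in turn (circles), filled where the adjusted p was under 0.05. *Nfkbib* without Cre replicate 2, at -0.74, is the only filled circle, and the circles of *Nfkb1*, *Nfkb2* and *Nfkbia* lie on both sides of 0.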

How the data were processed

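RNA from NSC cultures was sequenced as TruSeq v2 libraries. The paper's methods name TopHat with mm9 and mm10, while the submitters' processing notes name STAR 2.7 and mm10, and both name DESeq2. The read counter, its strand setting and the annotation are not given in the sources used here. The authors deposited normalized counts, a signal made by dividing reads per gene by 1 size factor per library. Columns of their own comparison were also deposited (log2 fold changes, their standard errors and a statistic as scores, p-values and adjusted p-values) and were not used. Of 53379 genes, 1 with a blank value was left out. The value of 1 read was found per library, and 100% of values were whole reads to within 0.001.

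limma 3.58.1 (R 4.3.3, lmFit, eBayes with trend) was run on log2(normalized count + 1) for genes with a mean of at least 10, with Benjamini-Hochberg adjustment over all tested genes and a threshold of 0.05. Fold changes on this scale understate those of low genes. Alternatives included edgeR 4.0.16 and DESeq2 1.42.0 on recovered reads. The test was run on simulated counts with independent libraries and a fixed fold change in 200 genes. That check does not cover libraries that share a culture or smaller differences. Exon lengths came from GENCODE M1 (mm9), as the union of exons, gene positions and promoters from RefSeq (GRCm38.p6), and figures from matplotlib 3.10.9. The members and lists were chosen with earlier results of these data known. Named were the 10 members, *Tbl1xr1*, up to 4 genes per pathway list and direction past the threshold, and the closest gene to each of the 3 members with the smallest p. Other genes illustrate their lists or were named after their values were seen. Intervals are at 95%.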

Additional observations from a re-analysis of the deposited data

How the results depend on the processing

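Over the alternatives the 8 tested members gave 127 fits, of which 119 kept the direction and the side of the threshold, 7 turned the sign and 1 crossed the threshold. The log2 difference of *Nfkb1* turned to -0.015 and that of *Nfkb2* to 0.069 with Cre replicates 2 and 2_2 averaged. With 1 library left out, *Nfkb1* ran from -0.10 to 0.080, *Nfkb2* from -0.24 to 0.19 and *Nfkbia* from -0.038 to 0.40. The count of changed members was 0 in every alternative except without Cre replicate 2, so it ran from 0 to 1 with 1 library left out. The count over all genes, 1478, was 2380 at an adjusted p under 0.1 and 660 with control replicates 1 and 1_1 averaged, and ran from 558 to 2396 with 1 library left out. The count of 4 changed pathway genes was 9 at an adjusted p under 0.1, 8 with DESeq2 and 1 with control replicates 1 and 1_1 averaged, and ran from 1 to 7 with 1 library left out. *Tbl1xr1* had a log2 difference of 0.45 and passed with DESeq2 (adjusted p = 0.0398), and its difference ran from 0.36 to 0.55 with 1 library left out. The cause of these shifts was not tested. *Tlr3*, *Irak4* and *Tnip1* each lost their call in 6 of 16 alternatives. No alternative moved the median of all genes by more than 0.019 (log2). No paired analysis was possible because the groups share only 1 replicate number. Depth limits *Tnfaip3*, *Birc3* and *Nfkbie* most, with at most 17 reads in a library.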
